A study of Mus musculus with 6 samples.

Results

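Regions of open chromatin that were called in every young sample and in no aged sample were examined in mouse long-term haematopoietic stem cells. They were chosen by their calls: the peaks of all 6 samples on chromosomes 1 to 19 were merged where they overlapped by at least 1 bp, and a region was kept if all 3 young lists and none of the 3 aged lists had a peak in it. Of 844567 merged regions, 523 met this rule (0.0619%). They are called young-only regions here. Since the calls chose them, their presence in young lists and absence from aged lists is a description and was not tested.

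Accessibility was measured by ATAC-seq, where transposase insertions into open DNA are sequenced and pile up as peaks. Cells came from the bone marrow of C57BL/6 mice, 3 samples labelled young and 3 labelled aged, and were sorted as lineage-negative, Kit-positive, Sca1-positive cells without Flk2 and Cd34. All 6 samples were then kept overnight in HBSS with 10% serum at 3% oxygen, a step that no sample here lacks. The labels say young or aged without a number of weeks, and they do not give sex. Nor is it stated for each sample that it came from its own animal, and a p-value therefore covers only sample-to-sample spread, part of which may be technical. The titles give aged and young replicate 1 the experiment number 2, both replicates 2 the number 5 and both replicates 3 the number 3, without saying what it marks. These are bulk samples, in which fewer cells with an open site and less signal per cell cannot be told apart.

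Long-term stem cells sustain blood formation over a lifetime, and with age they are known to favour myeloid and platelet output over lymphoid output. Open chromatin falls into promoters, which are accessible in most cell types, and distal elements such as enhancers, which differ more between cell types and states. A peak list can lack a region because the signal there did not reach the threshold of the peak caller.

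The 6 lists were unequal. After removal of repeated intervals, the young lists held 252914, 242417 and 107804 autosomal peaks (replicates 1 to 3) and the aged lists 234785, 125193 and 125555. The number of reads behind each list is unknown. A pair of lists stood apart: young replicate 2 had a call in 62.3% of the 15059 regions common to the remaining 5 lists, and aged replicate 3 in 75.7% of the corresponding 12393, whereas the other lists reached at least 97.5%. Young replicate 2 also held only 199 distinct p-values, so many of its peaks tie. Ends of stem-cell identity genes were called for 19 to 31 of 34 genes per list. The ranges were 8 to 19 of 27 granulocyte and monocyte genes and 7 to 15 of 21 endothelial and stromal genes. They were 12 to 27 of 36 lymphoid, 11 to 19 of 25 erythroid and megakaryocyte, and 5 to 10 of 13 mast cell, basophil and eosinophil genes. The share over all protein-coding genes is not given per list, so these counts do not describe cell identity.

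Sequences are available for the few young-only regions that overlap a window around an annotated gene start. These windows run from 250 bases before to 50 bases after the start (RefSeq, GRCm38.p6, the assembly that mm10 names), and capitals mark the bases that lay in peaks of at least 2 of the 3 young lists. Pygo1 (plus strand, chr9:72925395-72925694) encodes a nuclear cofactor of Wnt signalling. Palld (minus strand, chr8:61760040-61760339) encodes palladin, an actin-bundling protein, and Septin9 (plus strand, chr11:117332063-117332362) encodes a cytoskeletal GTP-binding protein. Both of the latter starts lie inside the annotated gene, away from its ends. The windows are printed 5′ to 3′ on the strand of the gene because they show how closely the calls of the young lists coincide.
Pygo1: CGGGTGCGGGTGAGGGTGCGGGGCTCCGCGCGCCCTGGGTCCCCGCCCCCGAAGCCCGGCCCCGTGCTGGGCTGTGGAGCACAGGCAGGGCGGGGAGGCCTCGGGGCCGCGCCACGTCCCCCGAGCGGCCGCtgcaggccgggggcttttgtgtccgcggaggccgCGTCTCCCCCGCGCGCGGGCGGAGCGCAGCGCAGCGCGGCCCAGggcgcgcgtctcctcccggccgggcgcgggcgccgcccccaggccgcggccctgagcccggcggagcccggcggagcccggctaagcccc
Palld: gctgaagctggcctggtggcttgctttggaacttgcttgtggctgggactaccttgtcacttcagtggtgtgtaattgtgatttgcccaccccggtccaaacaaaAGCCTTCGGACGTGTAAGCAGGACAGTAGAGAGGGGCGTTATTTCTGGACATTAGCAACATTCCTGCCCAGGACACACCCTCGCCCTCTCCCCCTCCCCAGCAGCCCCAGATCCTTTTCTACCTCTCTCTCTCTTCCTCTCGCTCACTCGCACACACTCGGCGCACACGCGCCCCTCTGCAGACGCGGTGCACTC
Septin9: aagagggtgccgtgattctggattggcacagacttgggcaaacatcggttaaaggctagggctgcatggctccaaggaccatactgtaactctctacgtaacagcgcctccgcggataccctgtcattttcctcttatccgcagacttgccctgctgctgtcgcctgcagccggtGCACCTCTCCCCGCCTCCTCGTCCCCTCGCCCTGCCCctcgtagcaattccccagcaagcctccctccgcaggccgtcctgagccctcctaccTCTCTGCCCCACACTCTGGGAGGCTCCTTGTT
In the Pygo1 window 176 of 300 bases were in at least 2 lists and 0 in all 3. The Palld window had 195 bases in at least 2 lists and 137 in all 3, and the Septin9 window had 69 and 0. The Pygo1 window was 84% G and C with 48 CpG dinucleotides, the Palld window 57.7% with 13, and the Septin9 window 60.7% with 15. The median over all 20063 windows of protein-coding genes was 57% with 14 CpG. In all, 6 windows of 5 protein-coding genes met a young-only region, with Frzb and Mfap3l as the other genes. Of these 6 windows, 0 held the AP-1 motif TGANTCA, against 7.06% of all windows, and 1 held the RUNX motif TGTGGT, against 14.8%, on either strand. These counts are too few to read further.

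The number of young-only regions lay in the middle of the range given by any other choice of 3 lists. There were 17624 regions called in exactly 3 of the 6 lists, of which the young-only regions were 2.97%. The 20 possible sets of 3 lists held from 222 to 3541 such regions, with a median of 513, and the young set had 523, with 9 sets above it and 10 below. The largest counts came from sets that mix the ages, such as aged replicates 1 and 2 with young replicate 3 (3541 regions). The 3 aged lists shared 437 regions that no young list had (0.0517% of all regions). These counts are set side by side as a description of the lists.

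**Figure D1:**
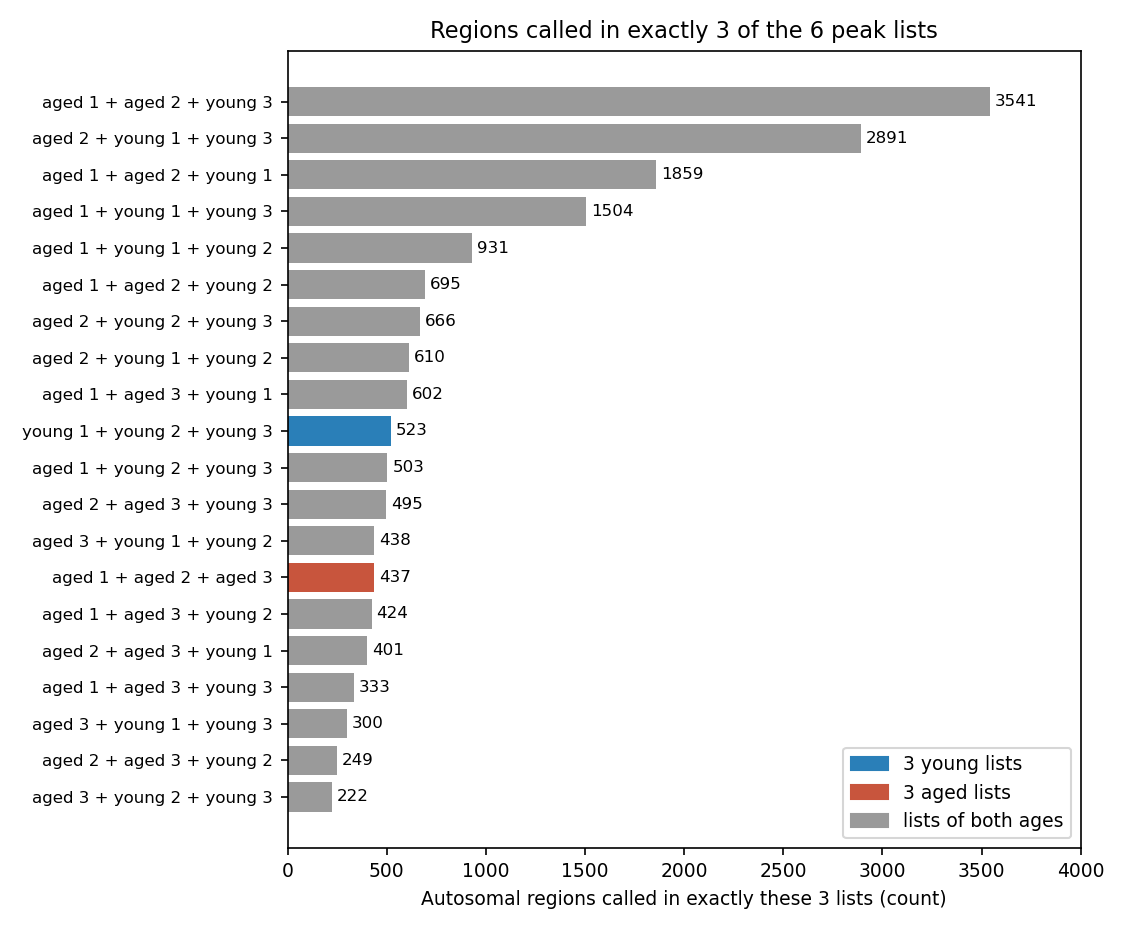
Number of autosomal regions (horizontal axis) called in exactly the 3 named peak lists and in no other, for all 20 sets of 3 lists (vertical axis, numbers are replicates). The young-only count of 523 has 9 sets above it and 10 below, and the aged-only count of 437 is lower, while the 4 sets above 1000 all mix the ages.

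The place of the young count and the order of the ages changed with both lists of low calling rate left out (an alternative chosen after seeing the data). Young replicates 1 and 3 then shared 5585 regions that aged replicates 1 and 2 lacked, and the aged pair shared 7365 that the young pair lacked. The 4 sets of 1 aged and 1 young list held 5488, 5794, 6528 and 11947, so only 1 of the other 5 pairs was below the young pair. The count of 11947 was that of aged and young replicate 1, which share an experiment number and were the longest of these lists. With every list cut to its strongest 107804 peaks, the length of the shortest list, 165 young-only and 276 aged-only regions were found, and sets of mixed age held 69 to 4341. With peaks at a q-value of at most 0.05 alone, there were 99 young-only and 142 aged-only regions, so under both settings the aged-only count was the larger. Leaving out 1 list changed the count as well: it was 734, 1249 and 576 without aged replicates 1, 2 and 3, and 3366, 5250 and 9832 without young replicates 1, 2 and 3.

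Young-only regions were of middling strength in the lists that called them, far below the regions called in all 6 lists. Strength is given as the percentile of the -log10 p of a peak among all autosomal peaks of its own list, with ties averaged. Where a list had several peaks in a region, the highest percentile was taken. The median percentile was 64.8 in young replicate 1, 55.5 in replicate 2 and 43.1 in replicate 3, against 97.6, 80.2 and 94.8 at the 9376 regions called in all 6 lists. Over all regions called in each list the medians were 49.2, 42.7 and 50.9, so young-only regions stood above them in young replicates 1 and 2 and below in young replicate 3. The medians of fold enrichment over the sample's own background were 2.97, 2.68 and 2.96. No young-only region exceeded percentile 82.6 in young replicate 3. All peaks in the deposited lists have a p-value of at most 0.01, and 251 of the 523 regions had a -log10 p under 2.5 in at least 1 young list, close to that limit. At a q-value of 0.05 the peak passed in all 3 young lists for 60 regions, in 2 for 179, in 1 for 204 and in none for 80.

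The closest comparison is with regions that were also called in 3 lists. For the 4738 regions called in young replicate 2 and any 2 lists that do not make up the young set, the percentile of the weakest of the 3 peaks had a median of 22.4, the same tied value as in the young-only regions. All 3 peaks passed a q-value of 0.05 in 13.3% of them (95% Wilson interval 12.4 to 14.3) and in 11.5% of young-only regions (9.02 to 14.5). Over all 16664 regions called in 3 lists of both ages the share was 32.3%, and in the aged-only regions it was 20.1%. By these values young-only regions lay close to the other regions that young replicate 2 shared with 2 lists, and below the 3-list regions as a whole. Intervals on shares cover counting error over regions only, and regions are not replicates.

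**Figure D2:**
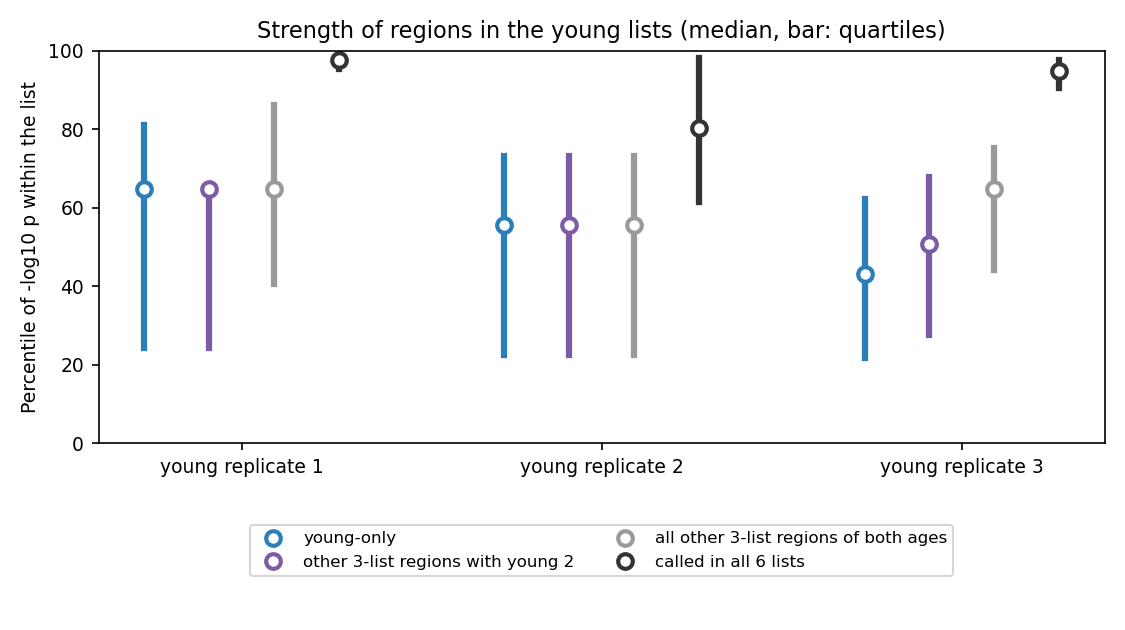
Median (circle) and quartiles (bar) of the percentile of -log10 p within each young list, for 4 sets of regions. In young replicate 3 the young-only regions sat at a median of 43.1 and the regions of all 6 lists at 94.8.

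The strength of a region in the young lists rose with the number of aged lists that called it. Of 14183 regions called in all 3 young lists, 3.69% had no aged call, 7.3% had 1, 22.9% had 2 and 66.1% had 3. In young replicate 3 the median percentile was 43.1, 71, 82.6 and 94.8 along that order, in young replicate 2 it was 55.5, 61.5, 73.1 and 80.2, and in young replicate 1 it was 64.8, 81.5, 91.3 and 97.6. The median width rose in the same order, at 454, 492.5, 586 and 791 bp. Wider regions can hold several peaks of a list, of which the strongest counts, and the part of width in this rise was not tested. Just outside the rule lie the 1036 regions with 1 aged call, of which 750 were called in aged replicate 2, 228 in aged replicate 1 and 58 in aged replicate 3. Just inside it lie young-only regions with an aged peak next to them: 59 had one within 200 bp and 122 within 500 bp, and the smallest gap was 4 bp. The aged lists held 234785, 125193 and 125555 autosomal peaks, and the corresponding counts for other regions are not given. These distances therefore cannot show whether young-only regions differ from other regions. The median distance to the nearest aged peak was 1357 bp, and 8 regions had none within 10 kb.

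The 3 young peaks did not always mark the same bases. In 351 regions (67.1%, 95% Wilson interval 63 to 71) at least 1 base was in all 3 peaks, and in 172 the peaks only formed a chain of overlaps. The share was 64.6% in the other 3-list regions with young replicate 2, 69.6% in aged-only regions and 79.5% in all 3-list regions of both ages. The summits of the 3 peaks lay a median of 205 bp apart, and within 100 bp in 123 regions. Young-only regions had a median width of 454 bp, between 791 bp at regions of all 6 lists and 205 bp over all merged regions.

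Young-only regions were found at gene ends about as often as merged regions in general, and far less often than regions called in all 6 lists. The centre was within 1 kb of an end of a protein-coding gene in 25 (4.78%, 95% Wilson interval 3.26 to 6.96), against 4.28% over all merged regions, 9.34% (8.91 to 9.79) of the 3-list regions of both ages and 57.3% of regions called in all 6 lists. Another 252 (48.2%, 43.9 to 52.5) lay elsewhere inside a gene, 95 (18.2%) outside genes within 20 kb of a gene end, and 151 (28.9%) farther away. The gene table used gives no exons, so exonic and intronic positions are not separated. Aged-only regions had 6.64% at gene ends (4.66 to 9.37) and 44.2% elsewhere inside genes. In the other 3-list regions with young replicate 2 these shares were 5.97% and 48.2%, within the intervals of the young-only regions. The class at 1 to 20 kb differed more, at 14.4% against 18.2% (15.1 to 21.7) in young-only regions. Within 1 kb of a region called in all 6 lists there were 2 young-only regions (0.382%), near Fads1 and Bcan, against 0.651% of all merged regions and 1.5% of the other 3-list regions with young replicate 2. Within 10 kb the shares were 7.46%, 6.58% and 9.6%, so the young-only share was near that of all regions.

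**Figure D3:**
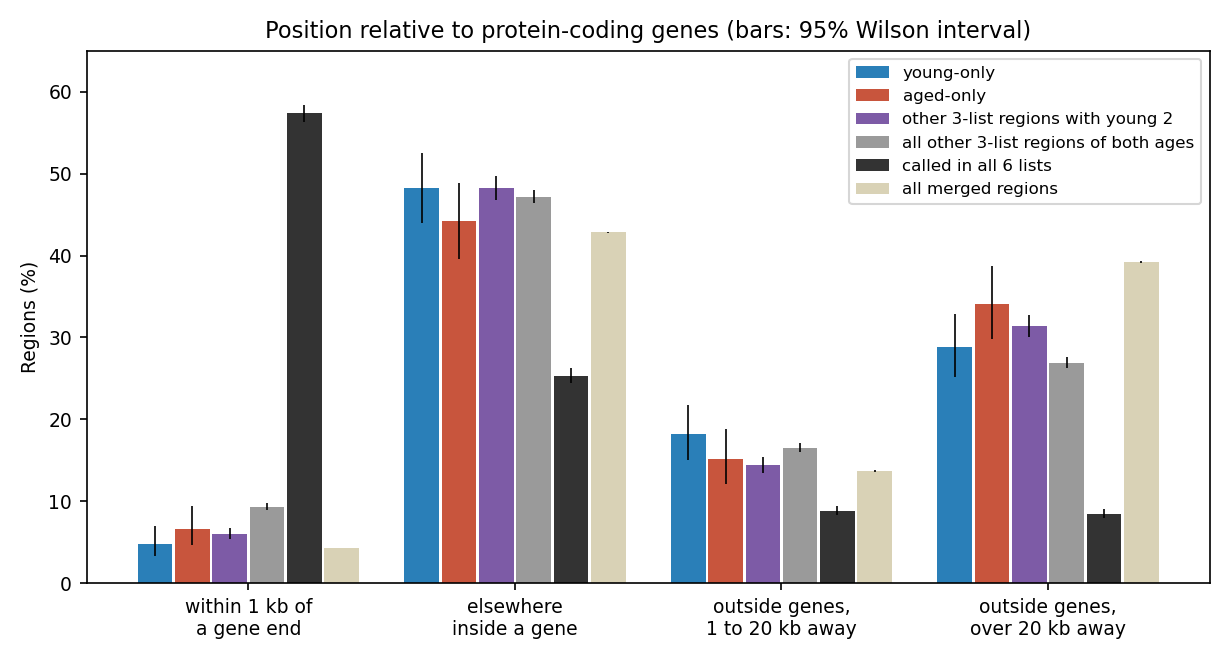
Share of regions (vertical axis, percent) in 4 positions relative to protein-coding genes, for 6 sets of regions, with 95% Wilson intervals. Young-only regions were at gene ends in 4.78% and inside genes in 48.2%, against 9.34% and 47.2% for all 3-list regions of both ages and 57.3% and 25.3% for regions called in all 6 lists.

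The regions were spread over all 19 autosomes. Chromosome 2 held most, at 42, and chromosome 16 fewest, at 14. Relative to the merged regions on each chromosome, chromosome 17 stood highest (35 young-only regions, 0.105%) and chromosome 12 lowest (15, 0.0371%). Chromosome 17 held 6.69% of the young-only regions (95% Wilson interval 4.85 to 9.16), against 4.18% of the other 3-list regions with young replicate 2 and 5.26% of the aged-only regions. Chromosome 18 held 5.54% of the young-only regions (3.89 to 7.85), against 3.4% and 3.2% in those sets, so chromosome 17 was not alone. Both chromosomes were singled out of 19 after the values were seen.

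The strongest young-only region lay inside Lasp1 (chromosome 11, 97810356 to 97810770), a gene for an actin-binding LIM protein. Its percentiles were 95.9, 88.8 and 79.5 in young replicates 1 to 3, its fold enrichments 6.68, 2.88 and 6.22, and 220 bases were shared by the 3 peaks. The nearest aged peak was 906 bp away. Next came a region inside Gli2, a transcription factor of the hedgehog pathway (chromosome 1, 118927798 to 118928397, percentiles 79.4, 88.8 and 79.5), whose 3 peaks shared 6 bases. An intergenic region 27.7 kb from Efcab14 (chromosome 4, 115709861 to 115710125) followed with 93.4, 88.8 and 78.5, and summits within 18 bp of each other. Another lay 6.64 kb from Htra1, a secreted serine protease (chromosome 7, 130992149 to 130992442), with 91.2, 88.8 and 77.9. In each of these the peak in young replicate 2 had the tied percentile of 88.8, and young replicate 1 or 3 gave the highest fold enrichment.

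The fifth was the Pygo1 region shown above (chromosome 9, 72925169 to 72925916). The merged region covers the start of the gene, but the start itself lay in a peak of young replicate 3 alone. It had percentiles of 91.9, 98.6 and 73.6 and fold enrichments of 4.45, 3.77 and 4.47, and the nearest aged peak was 4310 bp away. The others of the 20 strongest lay inside Mylk (myosin light chain kinase), Hipk3 (a protein kinase), Ctdspl (a phosphatase), Nphp4 (a protein of cilia), Ildr1, Paqr8 (a membrane steroid receptor), Shroom1 and Ticam2 (an adaptor of Toll-like receptor signalling), or outside protein-coding genes with their nearest gene end at Tagap, Gm51579, Lelp1, Hpgds (a prostaglandin D synthase), Fads1 (a fatty acid desaturase), Sfxn1 and Cep126. Their lowest percentiles ran from 68.4 to 73.1. An aged peak lay close to 4 of them, 61 bp from the region near Tagap, 84 bp from Ctdspl, 141 bp from Ildr1 and 146 bp from Nphp4. Ranking ties at 68.4 were broken by position, and 4 further regions had the same lowest value as the last of the 20. They lay inside Palld (91.9, 73.1 and 68.4), at Tmem235 (89.5, 88.8 and 68.4), and outside protein-coding genes with nearest gene ends at Samsn1 (90.5, 73.1 and 68.4) and Lacc1 (86.3, 73.1 and 68.4).

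**Figure D4:**
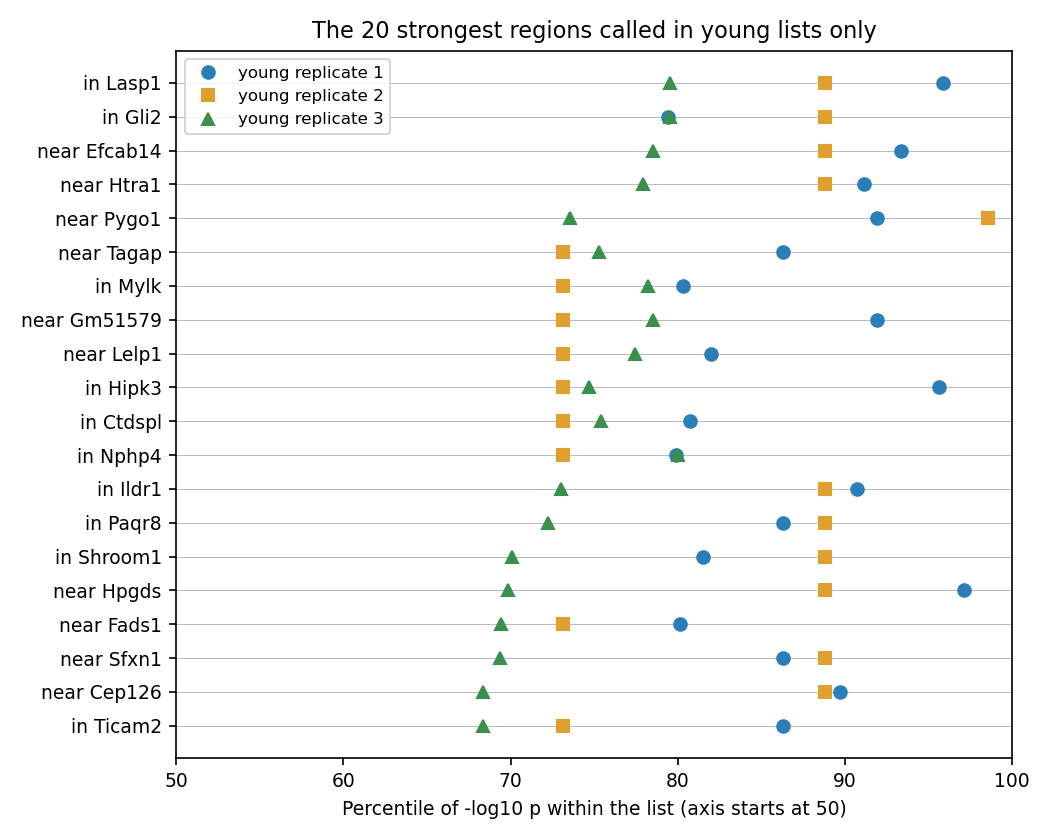
Percentile of -log10 p within each young list (horizontal axis, starting at 50) for the 20 young-only regions with the highest lowest percentile, named by the gene that holds them or whose end is nearest. Young replicate 2 takes few values because its peaks tie, and the lowest value of each region lies between 68.4 and 79.5.

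The weakest young-only regions were near the limits of the lists. A second region inside Gli2 (chromosome 1, 118955610 to 118956065) had percentiles of 24.2, 8.61 and 0.0891. The regions inside Wwc1, a gene for a scaffold protein of Hippo signalling (0.208, 22.4 and 0.806), and inside Acta2, the gene for smooth muscle actin (0.208, 88.8 and 64.8), came just before it. In 345 of the 523 regions the lowest of the 3 percentiles was under 25, and in 79 (15.1%) it was at least 50. The latter share was 16.2% in the other 3-list regions with young replicate 2, 24.3% in aged-only regions and 35.5% in all 3-list regions of both ages. Young replicate 3 gave the lowest percentile in 229 regions, young replicate 2 in 169 and young replicate 1 in 125.

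Within 1 kb of an end of a protein-coding gene there were 27 young-only regions, 0.0686% of the 39384 merged regions there, close to the 0.0619% over all regions. Besides Pygo1, Shroom1 and Tmem235, the strongest were at Fam83f (chromosome 15, 80671454 to 80672038, percentiles 64.8, 73.1 and 73.6) and at Cebpe, which encodes a C/EBP factor needed by maturing granulocytes (chromosome 14, 54712828 to 54713265). At Cebpe the percentiles were 95.8, 61.5 and 72.2, the fold enrichments 6.62, 2.75 and 4.4, and the nearest aged peak was 739 bp away. Snx20, a sorting nexin of leukocytes, had 82.6, 61.5 and 80.6 (chromosome 8, 88635837 to 88636290), and Syt17 had 90, 61.5 and 74.1. Young replicate 2 gave the lowest percentile at Cebpe, Snx20 and Syt17, young replicate 3 at Pygo1, Shroom1 and Tmem235, and young replicate 1 at Fam83f.

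The next gene ends by strength belonged to Il17b (an interleukin-17 family cytokine), Usp43 (a deubiquitinase), Fbxl18, Rspo2 (an enhancer of Wnt signalling), Thy1 (a surface protein of T cells), Osbp (an oxysterol-binding protein), 4921524J17Rik, Gp1bb with its neighbour Septin5, Trappc8, Nkx3-2, Orc5 (a subunit of the origin recognition complex), Ybx3 and Vwa1. Gp1bb encodes a subunit of the platelet receptor for von Willebrand factor. Its region (chromosome 16, 18621539 to 18622055) had percentiles of 41.8, 22.4 and 43.8, and an aged peak lay 373 bp away. At Thy1 (chromosome 9, 44043752 to 44044077) the percentiles were 40.8, 73.1 and 31.7.

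Young-only regions lay in 262 of 20665 protein-coding genes (1.27%), and aged-only regions in 208 (1.01%). The host genes were long, with a median of 108 kb against 17.5 kb over all genes and 102 kb for the hosts of aged-only regions. Counting genes with a young-only region inside or within 1 kb, the share was 0.243% of genes under 20 kb (27 of 11089), 1.54% at 20 to 100 kb, 5% at 100 to 300 kb and 9.01% over 300 kb (48 of 533). For aged-only regions the shares were 0.28%, 1.16%, 3.82% and 7.69%. The share of host genes rose with length for both sets.

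**Figure D5:**
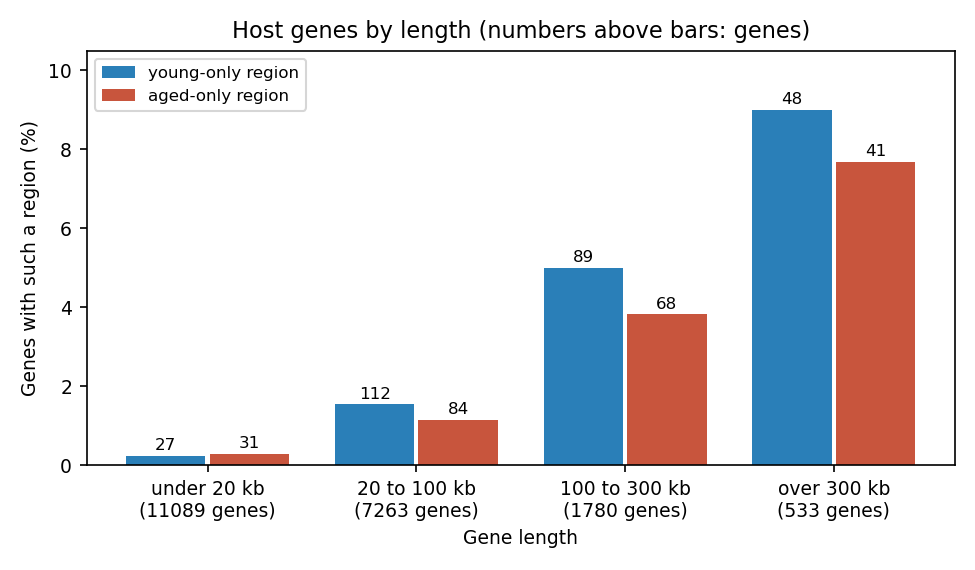
Share of protein-coding genes (vertical axis, percent) with a young-only or an aged-only region inside or within 1 kb, in 4 classes of gene length, with the number of genes above each bar. Both sets rise with length, from 0.243% and 0.28% under 20 kb to 9.01% and 7.69% over 300 kb.

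Few genes held more than 1 young-only region. No gene held 3, and 6 held 2: Creb5 (a transcription factor of the CREB family), Dock4 (an exchange factor for small GTPases), Gli2, Rarb (a retinoic acid receptor), Ube2cbp and Zfp423 (a zinc-finger transcription factor). The same number of genes, 6, held 2 aged-only regions. The 6 hosts ran from 158 kb (Ube2cbp) to 651 kb (Rarb), and only Dock4 also held an aged-only region, at 1. Rarb held 263 merged regions in all, of which 13 were called in 3 lists of both ages. Creb5 held 196 merged regions with 5 such, and its young-only regions had percentiles of 64.8, 42.7 and 37.5 (chromosome 6, 53513824 to 53514281) and 49.2, 22.4 and 64.8 (53652768 to 53653074).

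Neighbouring young-only regions on a chromosome lay a median of 2455 kb apart. Spacings here run from centre to centre, whereas gaps to other peaks above run from edge to edge. None of the 504 neighbouring pairs had centres within 10 kb (smallest spacing 10499 bp), 14 were within 100 kb and 84 within 500 kb. The aged-only regions had 2 of 418 pairs within 10 kb, 24 within 100 kb and 57 within 500 kb. There were 8 stretches of at most 500 kb with 3 young-only regions. None held an aged-only region, but those lay a median of 2862 kb apart, far more than the length of a stretch. Such stretches are not given for other sets, so they cannot show whether young-only regions differ from those. On chromosome 9 (44043752 to 44522209) the 3 lay at Thy1, at Foxr1 and at Cxcr5, a chemokine receptor of B cells, with 15 regions of all 6 lists among them. On chromosome 6 (53171873 to 53653074) they were the pair in Creb5 and a region 103 kb from Jazf1. The other stretches were on chromosome 10 (Tspear, Trpm2 and Gatd3a), chromosome 13 (Kif27, Rmi1 and Slc28a3), chromosome 14 (3 regions outside protein-coding genes whose nearest gene end was that of Gpc5), chromosome 17 (Tmem242 and Zdhhc14) and, in 2 places, chromosome 18 (Arap3, Gnpda1 and Ndfip1, and Arhgef37 with Il17b). The strongest regions of any stretch, at Foxr1, near Gpc5 and inside Tspear, had a lowest percentile of 64.8.

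Genes of blood cells were then examined by lists. Over all protein-coding genes, 1.34% had a young-only region inside or within 1 kb (276 genes). Of 34 stem-cell identity genes 1 had such a region, Mecom, a transcriptional regulator of stem-cell self-renewal. It lay inside the gene (chromosome 3, 30410648 to 30411077) with percentiles of 82, 22.4 and 78.5 and fold enrichments of 3.6, 1.89 and 5.92. The peak was strong in young replicates 1 and 3 and weak in young replicate 2, where its -log10 q was 0.66. Aged peaks came no closer than 5688 bp.

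Of 36 genes whose RNA is known to be higher in aged stem cells, 1 had a young-only region, the adaptor gene Fyb (47.3, 42.7 and 21.8). Thy1 was the only such gene among 36 lymphoid genes. Granulocyte and monocyte genes had 2 of 27, Cebpe and Cd14, a co-receptor for bacterial lipopolysaccharide, whose region was weak (44.1, 22.4 and 7.78). Chromatin regulators had 2 of 36. These were the histone deacetylase gene Hdac9 (64.8, 88.8 and 21.8) and Dnmt1, the maintenance DNA methyltransferase, whose region had percentiles of 0.208, 73.1 and 31.9. The neuronal adhesion and synapse list, with a median gene length of 1142 kb, had 4 of 46 (Grid1, Dab1, Cdh13 and Ptprt) and 5 of 46 for aged-only regions. No gene had a young-only region among 25 erythroid and megakaryocyte, 13 mast cell, basophil and eosinophil, 21 endothelial and stromal, 27 AP-1 and immediate early, 33 inflammation and interferon, and 23 cell cycle and senescence genes. The lists do not hold every gene of a cell type: Gp1bb and Cxcr5, named above with young-only regions, were in none of them. The counts of 0 to 4 genes per list are too small to set any list apart from all genes.

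Measures that the rule did not use were compared between the ages over samples. The first was the share of the peaks of a list within 10 kb of a young-only region but outside it. It was 0.577%, 0.579% and 0.5% in aged replicates 1 to 3 and 0.513%, 0.512% and 0.684% in young replicates 1 to 3. The groups overlapped, with means of 0.552% ± 0.045 and 0.57% ± 0.0988 (SD, n = 3 each, exact 2-sided permutation test p = 0.8). Without young replicate 3 the difference turned to -0.0396 percentage points. Within the experiment numbers the young list was lower in 2 of 3 and higher in that of replicate 3.

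The second was the share of peaks elsewhere in the 262 host genes. It was 2.56%, 2.63% and 2.49% in aged and 2.47%, 2.25% and 2.84% in young replicates 1 to 3, again with overlap. The means were 2.56% ± 0.0695 and 2.52% ± 0.296 (SD, n = 3 each, exact 2-sided permutation test p = 0.8), and the young list was again lower in 2 of the 3 experiment numbers. Without young replicate 2 the difference turned from -0.0389 to 0.096 percentage points. The third was the median percentile at the 579 regions of all 6 lists within 100 kb of a young-only region, minus the median over all regions of all 6 lists. It was -0.05, -0.24 and -0.18 percentile points in aged and -0.17, -7.09 and -0.34 in young replicates 1 to 3. The difference, young minus aged, was -2.37 points (exact 2-sided permutation test p = 0.3) and came from young replicate 2, whose values tie: without that list it was -0.09, and the young value was the lower in each of the 3 experiment numbers. With 3 samples per age the smallest p this test can give is 0.1, and after Benjamini-Hochberg adjustment over the 3 measures each p was 0.8. No difference beyond the spread between samples was detected around the young-only regions.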

How the data were processed

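ATAC-seq peak lists of 3 young and 3 aged samples were used, one list per sample. The submitters' processing notes name Bowtie2, SAMtools, Picard and MACS2, and mm10 as the build. Their settings, and whether reads were shifted to the transposase cut, are not given in the sources used here. Peaks were called per sample, since each list has its own boundaries. Per peak, the deposited values are a fold enrichment (a ratio over the background of the same sample), the -log10 of a p-value and of a q-value, and the summit. These values are the authors' own and depend on depth, which is unknown, so they were ranked within a list. The deposited score was not used.

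Repeated intervals were reduced to distinct peaks, merged at an overlap of 1 bp and ranked with Python 3.11.15 and pandas 2.3.3. Genes (20665 autosomal, protein-coding) came from RefSeq on GRCm38.p6, with both gene ends taken because that table has no strand. Gene starts were listed for 16457 of them, and none on chromosome 18, which is why starts were used for sequences alone. No genome was used here, so base composition and motifs of most regions were not computed. Windows on opposite strands that overlap were checked to be reverse complements (1794 of 1794).

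Samples were grouped by their titles. Exact permutation tests used all 6 samples, and merging, distances and tests were tested on simulated lists. Intervals are 95% Wilson intervals (SciPy 1.17.1). Named regions were the 20 with the highest lowest percentile, the 20 strongest at gene ends, genes with 2 and stretches of 500 kb with 3 young-only regions, members of the gene lists, and the 3 weakest. Regions and lists were chosen with earlier results of these data known, and the comparison with 3-list regions of young replicate 2, the use of gene ends and the look at single chromosomes were chosen after seeing the data. Same-numbered samples hardly deviated together in strength at the 9376 regions of all 6 lists (correlations 0.06, -0.04 and -0.03). Samples with unlike numbers gave correlations from -0.06 to 0.05, so the value of the replicates 1 was the highest. The numbers were therefore not treated as pairs in the main tests. Calls cannot differ at those regions, so pairing in calls was not tested. Alternatives were the overlap, limits on p and q, list length, windows and each sample left out.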

Additional observations from a re-analysis of the deposited data

How the results depend on the processing

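The count of 523 young-only regions depended on the settings. It was 312 with an overlap of at least 100 bp, 99 with peaks at a -log10 q of at least 1.3 only, 295 at a -log10 p of at least 3 and 165 with lists of equal length. The aged-only counts there were 268, 142, 192 and 276, so the order of the ages turned at the q limit and with equal lengths. Of the 99 regions 60 overlapped a reported one, as did 212 of the 295 and 131 of the 165. It stayed within 1.5 times where an aged peak within 500 bp counted as a call, and where a base had to be in all 3 young peaks (351). With 1 list left out the lowest count was 576, when aged replicate 3 was dropped, and the highest 9832, when young replicate 3 was dropped, and without both lists of low calling rate it was 5585 (added after seeing the data). A rule over fewer lists is easier to meet by construction.

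None of the 3 comparisons over samples passed 0.05 under any alternative run, and a design of this size cannot. The lowest p was 0.1 (exact 2-sided permutation test). It was reached by the host gene share without young replicate 3 and by nearby strength without young replicate 1, where the ages did not overlap. The share of flanking peaks, 0.02 percentage points higher in young lists, turned to -0.00925 with windows of 5 kb, to -0.0043 with 50 kb and to -0.0399 at a -log10 p of at least 3, and ran from -0.0396 (without young replicate 3) to 0.0463 (without young replicate 2) with 1 sample left out. The host gene share, -0.04, ran from -0.198 (without young replicate 3) to 0.096 (without young replicate 2). The strength of nearby shared regions turned from -2.37 to 0.129 with windows of 200 kb and to 0.0254 at a -log10 p of at least 3, and ran from -3.55 to -0.09 with 1 sample left out. The cause of these turns was not tested. With the replicate number as a block (exact sign-flip test, smallest p 0.25), the p-values were 1, 0.75 and 0.25. The differences are the same by construction there, so their direction could not change. The planned sequence windows around summits were not run, as no genome was used. Depth limits every absence here: an aged list without a peak does not show closed chromatin.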
